A study of Mus musculus with 10 samples.

Results

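Duox2 and Duoxa2 are neighbouring genes on mouse chromosome 2 that together make a hydrogen peroxide source at the cell surface. They were followed by symbol through 10 libraries of mouse trophoblast stem cells (TSCs), lines that stand in culture for trophectoderm, the outer layer of the blastocyst. They are 2 of 17793 genes in the bulk table and 2 of 18356 to 19627 genes in the single-cell tables. Both were selected on measured values of these samples, namely the difference of Duoxa2 between the bulk groups and the ratio of Duox2 between pTSCs and TSCs, so those values are described here without a test.

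DUOX2 is a transmembrane NADPH oxidase that releases hydrogen peroxide on the outer side of the membrane and is switched on by calcium. It is best known in the thyroid, where thyroid peroxidase uses that peroxide to attach iodide to thyroglobulin, and in airway and gut epithelium, where it takes part in host defence. DUOXA2 is a membrane protein of the endoplasmic reticulum, and without it DUOX2 is not processed and does not reach the cell surface. A second oxidase and its own partner, Duox1 and Duoxa1, lie beside the pair.

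Libraries were made with CEL-Seq2, which counts transcripts by tags read near their 3′ ends and, in single cells, by molecular identifiers (UMIs). Each of 4 single-cell groups was 1 library from 1 plate of 384 sorted wells. These were line F4 TSCs kept for 6 days without Fgf4, Tgfb and heparin (differentiated TSCs), pTSCs of line pTS1 recovered from blastoids (blastoid pTSCs), newly derived pTSCs in LT21 medium (pTSCs), and F4 TSCs in Tx medium (TSCs). Blastoids are blastocyst-like structures built from stem cells. All 4 carried a GFP cassette inserted at random. Bulk libraries came from TSCs with eGFP knocked in at the Cdx2 coding sequence, 3 labelled CDX2-high and 3 labelled CDX2-low. CDX2 is a homeobox factor of trophectoderm. Every line had a C57BL/6J background. The labels do not say whether bulk replicates were separate cultures, so their spread may be technical.

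Bulk totals were 157588 to 272030 counts in CDX2-high and 116659 to 138966 in CDX2-low. Of 1536 wells, 1192 had 2000 or more UMIs without the mitochondrial genes and were used, with 257 to 318 cells and median UMIs of 6844 to 15091 per library. All 8 trophoblast markers were detected in each single-cell library and in bulk. In bulk the Cdx2-eGFP transcript averaged 786 ± 51.3 CPM in CDX2-high and 65.7 ± 33.2 CPM in CDX2-low (SD, n = 3 each). CPM are counts scaled to a library total of 1e6. The log2 fold change from edgeR was 3.53 with an SE of 0.29. The groups are labelled by CDX2, so this is a check of the labels and no test is given. Cdx2 itself had 1, 0 and 5 counts in CDX2-high and 0, 1 and 0 in CDX2-low, too few to be tested. Plates share well numbers, 148 of which were kept on all 4, but a well number stands for a different cell on each plate.

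The stretches around the start sites are shown because the genes lie head to head. The start sites in RefSeq's promoter table are 673 bases apart, while the RefSeq gene of Duox2, at its longest, ends 159 bases from that of Duoxa2. The Duox2 window therefore lies inside the longest span of its gene, and does not cover the sequence before the outermost start. The windows run from 250 bases before to 50 bases after the start site, in RefSeq's mouse build GRCm38.p6. The build of the deposited counts is not given in the sources used here. The window of Duox2 is chr2:122298178-122298477 on the minus strand, and that of Duoxa2 is chr2:122298650-122298949 on the plus strand. Both are written 5′ to 3′ on the gene's own strand, and capitals mark matches to the motifs searched.
Duox2: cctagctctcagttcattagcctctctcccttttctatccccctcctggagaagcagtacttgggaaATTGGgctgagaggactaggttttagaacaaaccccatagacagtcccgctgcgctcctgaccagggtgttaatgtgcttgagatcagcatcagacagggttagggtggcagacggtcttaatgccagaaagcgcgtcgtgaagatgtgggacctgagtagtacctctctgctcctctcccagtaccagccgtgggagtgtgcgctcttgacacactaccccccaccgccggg
Duoxa2: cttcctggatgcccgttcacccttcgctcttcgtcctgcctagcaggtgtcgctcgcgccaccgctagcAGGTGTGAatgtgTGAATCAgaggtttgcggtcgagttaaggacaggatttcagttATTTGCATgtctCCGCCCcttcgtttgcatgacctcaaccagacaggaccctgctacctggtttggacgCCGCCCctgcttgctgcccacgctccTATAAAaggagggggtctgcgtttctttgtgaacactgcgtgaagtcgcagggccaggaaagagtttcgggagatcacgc

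The windows differ in the matches they hold, and a missing match says only that those letters are not in these bases. The Duox2 window has 1 match, a CCAAT box (CCAAT) on the other strand with its first base 183 bases before the start site. CCAAT is found in 37.4% of all 32851 windows of this length. The Duoxa2 window has a TATA box (TATAAA) beginning at -30, found in 13.6% of windows. It also holds an octamer (ATGCAAAT, other strand) at -125, in 1.74% of windows, a T-box match (AGGTGTGA) at -181, in 1.28%, and an AP-1 match (TGANTCA) at -168, in 7.81%. GGGCGG, read by SP and KLF factors, occurs at -113 and -56 on the other strand, and 35.7% of windows have it. Neither window has the CDX letters TTTATG, which 11.9% of windows hold. The same was true of the TEAD letters GGAATG (14.7% of windows hold them) and the ETS letters CCGGAA (14.9%). The longer ESRRB letters TCAAGGTCA, found in 0.423% of windows, were in neither, nor were the SOX letters CATTGTT (3.78%) or the GATA letters AGATAA (11.2%). STAT motifs, TTCNNNGAA, were absent as well (8.3% of windows hold one). So were TFAP2 motifs, GCCNNNGGC (16.6%). Both strands were searched, and no match overlaps another. GC content was 55.3% in the Duox2 window and 56.7% in the Duoxa2 window, against a median of 52.7% over all windows.

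How well reads can be assigned differs between the pair. In GENCODE's mouse transcripts, a Duoxa1 transcript runs over 695 bases of Duoxa2 on the opposite strand. Of 971 stretches of 30 bases in the last 1000 bases of the Duoxa2 transcript, 654 occur on the opposite strand of Duoxa1. None of the 971 in Duox2 occurs in another gene on either strand. Whether counting used strand is not stated, so counts of Duoxa2 and Duoxa1 are uncertain with respect to each other.

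In single cells, Duox2 was abundant in 3 libraries and close to absent from the differentiated one. It reached 2.77 CPM in differentiated TSCs, 246 CPM in blastoid pTSCs, 522 CPM in pTSCs and 132 CPM in TSCs. Exact Poisson intervals at 95%, which cover counting error only, were 1.26 to 5.25, 226 to 267, 494 to 551 and 123 to 142 CPM in that order, and no pair of neighbours in the order of levels overlapped. These levels rest on 9, 569, 1272 and 713 UMIs. With 1 library per group there is no replicate check.

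Duoxa2 was the scarcer transcript in each single-cell library. Its level was 1.54 CPM (interval 0.50 to 3.59) in differentiated TSCs, 7.77 CPM (4.61 to 12.3) in blastoid pTSCs, 61.1 CPM (51.7 to 71.8) in pTSCs and 8.91 CPM (6.57 to 11.8) in TSCs. UMIs numbered 5, 18, 149 and 48. The intervals of blastoid pTSCs and TSCs overlapped, so the order of those neighbours was not resolved, while pTSCs stood above the other 3 libraries.

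**Figure D1:**
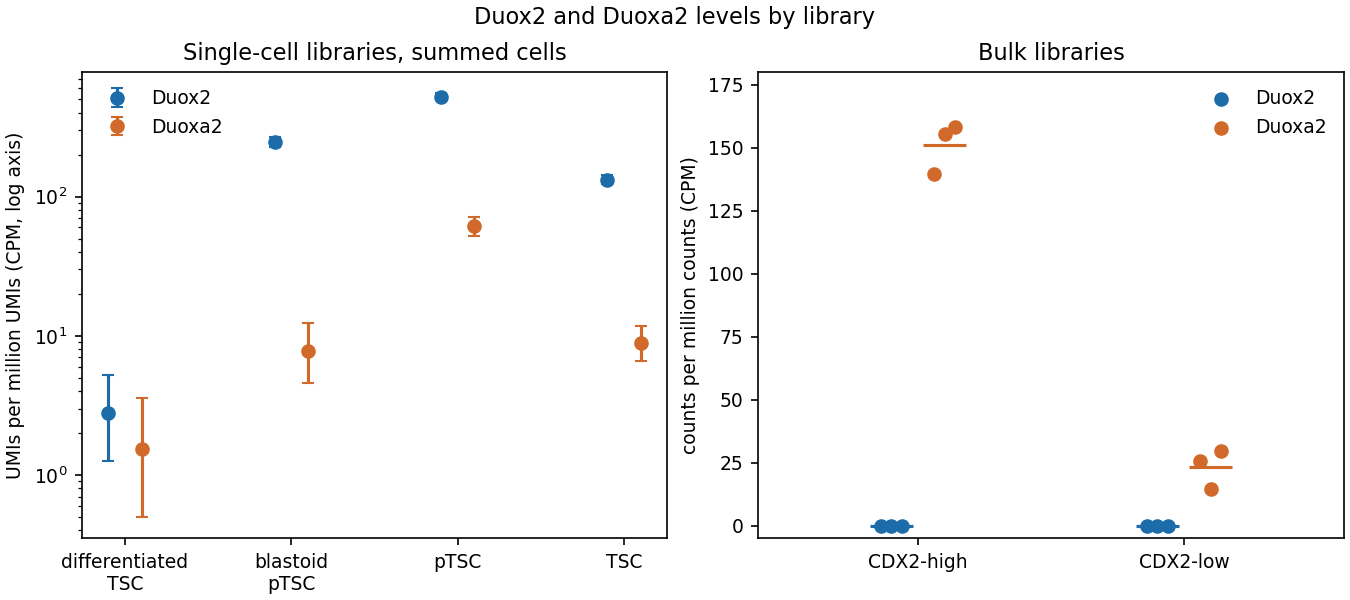
Levels of Duox2 (blue) and Duoxa2 (orange): on the left, CPM of summed cells in each single-cell library with exact 95% Poisson intervals on a log axis, and on the right, CPM of each bulk library (points) with the group mean (line). Duox2 runs between 2.77 and 522 CPM in single cells but lies at 0 in the 6 bulk libraries, where Duoxa2 is at 139.6 to 158.1 CPM in CDX2-high and 14.4 to 29.6 CPM in CDX2-low.

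Differentiated TSCs set against TSCs ask what happens after the growth factors are withdrawn, though withdrawal and plate differ together and cannot be told apart. Duox2 was 47.8-fold lower in differentiated TSCs (interval 25.1 to 105) and Duoxa2 5.80-fold lower (2.32 to 18.7). At least 2-fold lower levels were seen for 18.0% of 12158 genes measured, that is with 10 or more UMIs over both libraries. The signal left in differentiated TSCs rested on few wells. Without the 3 wells richest in the gene in each library, the ratio of differentiated TSCs over TSCs was 0.00799 in place of 0.0209 for Duox2 and 0.0417 in place of 0.172 for Duoxa2.

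In the comparison of pTSCs with TSCs, Duox2 was 3.94-fold higher in pTSCs (3.60 to 4.33) and Duoxa2 6.86-fold higher (4.93 to 9.71), against 17.6% of 12070 genes at least 2-fold higher. Line, medium and plate differ together here and cannot be told apart. In blastoid pTSCs, Duox2 was 2.12-fold lower than in pTSCs (1.92 to 2.35) and Duoxa2 7.86-fold lower (4.81 to 13.6), against 9.42% of 11343 genes at least 2-fold lower. Blastoid pTSCs are labelled line pTS1 and pTSCs as newly derived in LT21 medium. Line, culture and plate cannot be told apart from the blastoid here. With each cell weighted equally, the Duoxa2 ratio of blastoid pTSCs over pTSCs was 0.0811 in place of 0.127. The TSC and pTSC libraries each serve in 2 of the 3 comparisons, so these are not independent.

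The share of cells with Duox2 differed too. A Duox2 UMI was found in 6 of 318 differentiated TSCs (1.89%, Clopper-Pearson interval 0.695 to 4.06), 90 of 257 blastoid pTSCs (35.0%, 29.2 to 41.2), 217 of 299 pTSCs (72.6%, 67.1 to 77.6) and 166 of 318 TSCs (52.2%, 46.6 to 57.8). After each cell was thinned to 2000 UMIs the shares were 0.629%, 21.8%, 51.8% and 20.4% in the same order. Blastoid pTSCs thus lay below TSCs before thinning and beside them after it, and the median depth was 8242 UMIs in blastoid pTSCs against 15091 in TSCs. Duoxa2 was found in 4 differentiated TSCs (1.26%), 13 blastoid pTSCs (5.06%), 87 pTSCs (29.1%) and 33 TSCs (10.4%), and after thinning in 0%, 1.17%, 11.4% and 1.89%. The thinned 0 was over 318 cells, with an upper limit of 1.15%.

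Duox2 UMIs were spread unevenly over cells, although 72.6% of pTSCs and 52.2% of TSCs held the gene. Depth was not equalized for the shares that follow. The tenth of cells richest in Duox2 held 71.7% of its UMIs in blastoid pTSCs, 40.6% in pTSCs and 58.5% in TSCs. Single cells reached 51 UMIs in blastoid pTSCs, 30 in pTSCs and 57 in TSCs, and 3 in differentiated TSCs. Cells with 10 or more Duox2 UMIs numbered 21 of 257 blastoid pTSCs, 44 of 299 pTSCs and 20 of 318 TSCs. No cell held more than 7 UMIs of Duoxa2.

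The balance between oxidase and partner differed among libraries. For every 100 Duox2 UMIs there were 3.16 Duoxa2 UMIs in blastoid pTSCs (interval 1.86 to 5.05), 11.7 in pTSCs (9.82 to 13.9) and 6.73 in TSCs (4.92 to 9.02). The intervals of pTSCs and TSCs did not overlap, while those of blastoid pTSCs and TSCs met at their ends. Differentiated TSCs gave 55.6 per 100 with an interval of 14.6 to 185, from 5 and 9 UMIs.

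The pair was found together within cells. Among cells with a Duoxa2 UMI, Duox2 was also present in 2 of 4 differentiated TSCs, 12 of 13 blastoid pTSCs, 83 of 87 pTSCs and 32 of 33 TSCs. The product of the shares of cells with each gene gives 0.0755, 4.55, 63.1 and 17.2 cells with both, so that the observed count was 26.5, 2.64, 1.31 and 1.86 times that product. That multiple cannot exceed all cells over cells with Duox2, so it does not rank the libraries by strength of pairing. The 26.5 rests on 2 cells (interval 3.21 to 94.9). Detection of any gene goes up with depth, and cells with Duoxa2 were deeper. Their median was 12147 UMIs against 7969.5 in other blastoid pTSCs, 8612 against 6022.5 in pTSCs and 18272 against 14420 in TSCs. Computed within 4 bins of cells by depth, the observed count was still 2.05, 1.26 and 1.65 times the product in blastoid pTSCs, pTSCs and TSCs. In cells thinned to 2000 UMIs, both were found in 2 of 3 blastoid pTSCs with Duoxa2, 28 of 34 pTSCs and 3 of 6 TSCs. Multiples above 1 within the depth bins were also seen for other genes. In blastoid pTSCs, pTSCs and TSCs, intervals for the pair were 1.07 to 3.52, 1.03 to 1.51 and 1.15 to 2.28. Duox2 with Duoxa1 gave 2.35, 1.15 and 1.67 in the same order, with an interval above 1 only in blastoid pTSCs (1.08 to 4.38). Duox2 with Duox1 gave 2.14, 1.31 and 1.55, and Duoxa2 with Cdx2 gave 2.14, 1.02 and 1.55. Duox2 with Cdx2 gave 1.41, 1.03 and 1.10. The intervals of these last combinations include 1 in each of these libraries. The multiple has a different ceiling for Duoxa2 with Cdx2, so its values do not rank with those of the pair.

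Duoxa2 detection went up with the Duox2 count of the cell. In pTSCs the share of cells with Duoxa2 was 4.88% at 0 Duox2 UMIs, 18.3% at 1 to 2, 44.0% at 3 to 9 and 63.6% at 10 or more. TSCs showed the same order at 0.658%, 8.42%, 25.5% and 55.0%. Blastoid pTSCs had 0.599% (1 of 167 cells) at 0 Duox2 UMIs, 0 of 40 at 1 to 2, 13.8% at 3 to 9 and 38.1% at 10 or more. Depth rose along the bins too, with medians of 5385.5, 5661, 6946 and 11879.5 UMIs in pTSCs. As a level, which does not depend on depth in the same way, Duoxa2 was 11.002, 29.2, 83.2 and 112.6 CPM over the 4 bins of pTSCs. In TSCs it was 0.436, 5.77, 20.8 and 31.3 CPM.

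**Figure D2:**
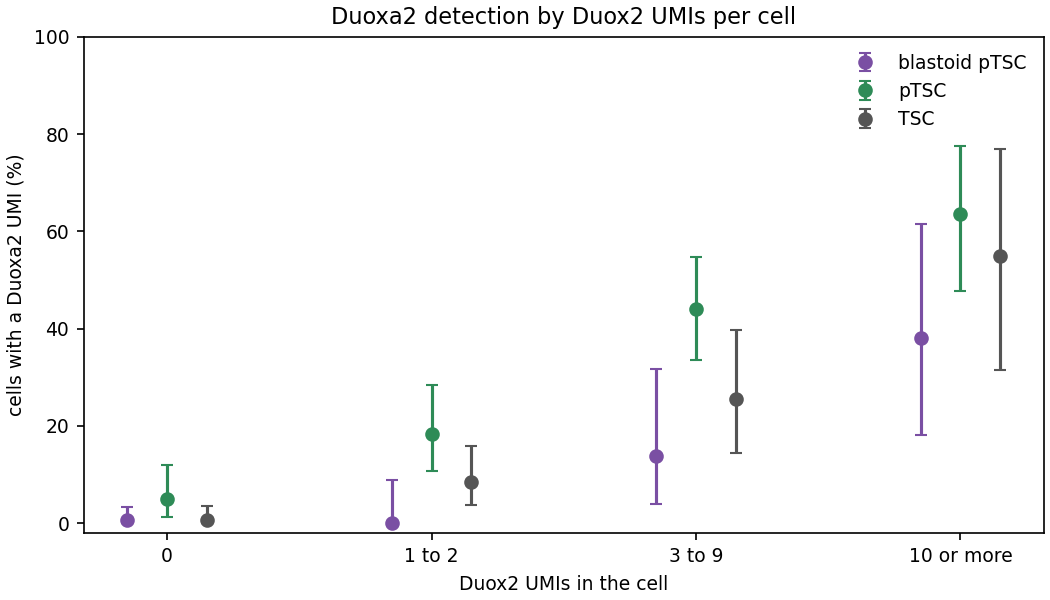
Share of cells with a Duoxa2 UMI (percent) against the number of Duox2 UMIs in the cell, in blastoid pTSCs, pTSCs and TSCs, with exact 95% binomial intervals. Cells with 10 or more Duox2 UMIs reach 38.1%, 63.6% and 55.0%, and cells with none 0.599%, 4.88% and 0.658%.

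The neighbouring pair was scarce. Duox1 had 4, 4, 10 and 27 UMIs and Duoxa1 3, 12, 39 and 15 in differentiated TSCs, blastoid pTSCs, pTSCs and TSCs. Duoxa1 was 5.75-fold higher in pTSCs than in TSCs (interval 3.10 to 11.2) and 3.09-fold lower in blastoid pTSCs than in pTSCs (1.58 to 6.48), at levels of 16.0 CPM in pTSCs and 2.78 CPM in TSCs. Duox1 stood at 4.10 CPM in pTSCs and 5.01 CPM in TSCs, and the interval of its ratio, 0.354 to 1.75, includes 1. Duoxa1 and Duoxa2 were found in the same cell in 4 blastoid pTSCs, 19 pTSCs and 7 TSCs, where the product of shares gives 0.506, 9.60 and 1.35. Their transcripts overlap on opposite strands, and the part of that overlap in this count was not tested.

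Across cells, Duox2 was the gene whose pattern was most like that of Duoxa2. The Pearson correlation of the pair on log counts per 10000 was 0.42 in 257 blastoid pTSCs, 0.42 in 299 pTSCs and 0.38 in 318 TSCs, and 0.12, 0.25 and 0.10 after thinning. Averaged over these libraries it was 0.41, the highest of 5467 genes that 10% or more of the cells of each library had a UMI of (median over genes 0.016). Next came Inpp1 (0.32), an inositol phosphatase, the homeobox gene Pbx3 (0.31), the zinc finger gene Zic5 (0.31) and Nat8l (0.30), which makes N-acetylaspartate. After thinning the mean was 0.16 for Duox2, 0.15 for Nat8l, 0.096 for Inpp1, 0.080 for Pbx3 and 0.073 for Zic5, so their order changed. The cells of a library share depth and plate, and these coefficients are descriptions.

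For Duox2, the 5 most alike of 5466 genes other than the pair were Cpne3 (0.51), a calcium-binding copine, Nat8l (0.50), Pbx3 (0.50), Inpp1 (0.50) and the FGF receptor gene Fgfr4 (0.45), around a median of 0.0077. Thinned means were 0.30, 0.34, 0.29, 0.28 and 0.26 in the same order. Duoxa2 was not ranked for Duox2, since only 5.06% of blastoid pTSCs held it. The mean for the pair, 0.41, lay below those of all 5 genes. At the other end were 1600014K23Rik (-0.35), the calponin Cnn2 (-0.30) and the keratin Krt8 (-0.30). By correlation Cdx2 stood lower than the genes named as most alike, though above the median over genes. It had a mean of 0.12 and rank 301 of 5466 for Duox2, and 0.05 and rank 1120 of 5467 for Duoxa2. Cdx2 was found with Duoxa2 in 8 blastoid pTSCs, 29 pTSCs and 18 TSCs, where the product of shares gives 2.68, 24.4 and 9.96. With Duox2 it was found in 29, 66 and 58 cells, where the product gives 18.6, 61.0 and 50.1. The level of Cdx2 was 49.1 CPM in TSCs with Duox2 and 51.0 CPM in TSCs without, and 55.0 and 53.2 CPM in pTSCs. In blastoid pTSCs it was 48.7 CPM in cells with Duox2 (interval 35.5 to 65.2) and 22.3 CPM in cells without (15.1 to 31.6).

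Within libraries, Duox2 was unevenly spread over clusters built without either gene. In blastoid pTSCs, cluster 3 (59 cells, led by Cyp26a1, Nat8l and Insm1) held 798 CPM of Duox2 and 27.9 CPM of Duoxa2, with Duox2 in 86.4% of cells. Cluster 2 (92 cells, led by Gsta4 and Ccnjl) held 94.1 and 1.38 CPM, and cluster 1 (106 cells, led by Serpinb9b, Ptgs2 and Nrk) 15.2 CPM of Duox2 and no Duoxa2. Cluster 3 and the highest cluster of pTSCs had Duox2 at 798 CPM (729 to 873) and 793 CPM (729 to 860). Duoxa2 did not match in this way, at 27.9 CPM (16.3 to 44.7) in blastoid cluster 3 and 76.3 CPM (57.5 to 99.4) in that pTSC cluster.

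Cultured lines showed the same unevenness to a different degree. Among TSCs, Duox2 was at 279 CPM in cluster 2 (119 cells, led by Gdf6, Cyp26a1 and Sox3), 49.7 CPM in cluster 1 (144 cells, led by Ptges and Capn6) and 15.5 CPM in cluster 3 (55 cells, led by Zfp36l3 and Gjb2). Cluster 2 held 44 of the 48 Duoxa2 UMIs, at 21.1 CPM. In pTSCs no cluster was low: Duox2 was at 793 CPM in cluster 2 (96 cells, led by Insm1 and Sox3), 442 CPM in cluster 1 (134 cells, led by Krt7) and 341 CPM in cluster 3 (69 cells, led by Ets1 and Gja1), and Duoxa2 at 76.3, 59.2 and 45.7 CPM, with overlapping intervals. No one of these clusters could be given a cell type name from the markers used.

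What was left after differentiation sat in 1 cluster. Cluster 4 of differentiated TSCs (69 cells, led by Zic5, Nr0b1 and Nat8l, with Eomes among its 10 leading genes) held 8 of 9 Duox2 UMIs and all 5 Duoxa2 UMIs. Cluster 1 (89 cells) and the differentiated trophoblast-like cluster 2 (82 cells, led by Serpinb9e and Serpinb9g) held none of either, with upper ends of the interval at 4.48 CPM in cluster 1 and 4.95 CPM in cluster 2. Median depths were 8839 UMIs in cluster 4, 7528 in cluster 1 and 7914.5 in cluster 2. No cell type known to lack the pair was on these plates, so a background from free RNA could be read only against these clusters.

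**Figure D3:**
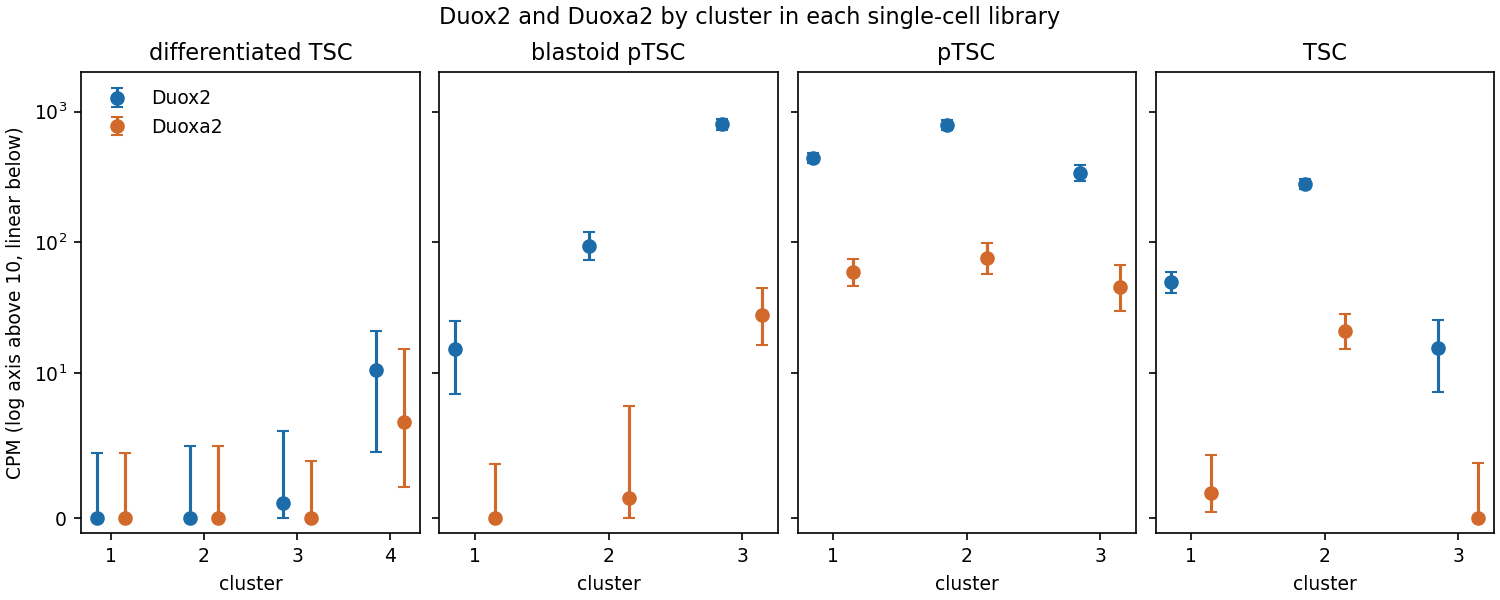
CPM of Duox2 (blue) and Duoxa2 (orange) in each cluster of each single-cell library, with exact 95% Poisson intervals, on an axis that is logarithmic above 10 and linear below. Cluster 3 of blastoid pTSCs, cluster 2 of pTSCs and cluster 2 of TSCs carry 798, 793 and 279 CPM of Duox2, and 2 clusters of differentiated TSCs carry none of either gene.

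Cells with Duox2 were then set beside cells of the same library without it, as a description, since a measured value splits them. Of polar trophectoderm genes, which mark the side of the trophectoderm next to the inner cell mass, 7 of 9 measured were at least 2-fold higher in blastoid pTSCs with Duox2 (none lower, median log2 ratio 1.50). It was 2 of 10 in pTSCs (median 0.36) and 2 of 9 in TSCs (median 0.69). Over all measured genes, 6.56%, 7.59% and 5.51% were that much higher in blastoid pTSCs, pTSCs and TSCs. After thinning the polar counts were 7 of 9, 0 of 9 and 2 of 9. Nat8l was at 421 CPM in blastoid pTSCs with Duox2 and 12.2 CPM in those without, a ratio of 34.5. In pTSCs it was at 1108 and 447 CPM, and in TSCs at 1127 and 330 CPM. Nr0b1, an orphan nuclear receptor, was 3.52, 3.44 and 4.13 times as high in cells with Duox2 in the same order of libraries. Medians over all measured genes were 0.00, 0.02 and -0.01.

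Mural trophectoderm genes, of the wall away from the inner cell mass, lay on the other side. At least 2-fold lower in cells with Duox2 were 6 of 11 in blastoid pTSCs (median -1.03), 3 of 11 in pTSCs (-0.68) and 2 of 11 in TSCs (-0.66), and none was 2-fold higher. All measured genes gave 7.02%, 5.28% and 4.42% lower. After thinning the mural counts were 7 of 10, 1 of 9 and 3 of 9. Krt8 was at 925 CPM in blastoid pTSCs with Duox2 and 2205 CPM in those without, at 705 and 1494 CPM in pTSCs, and at 244 and 492 CPM in TSCs. FGF and ERK targets had medians of 1.18 (5 of 7 higher, 1 lower), 0.28 (1 of 8 higher) and 0.69 (3 of 8 higher). After thinning they were 0.84 (1 of 3 higher), 0.42 (2 of 8) and 0.90 (2 of 6). Spry4, which restrains FGF signalling, was 2.26, 1.84 and 2.46 times as high in cells with Duox2 in blastoid pTSCs, pTSCs and TSCs. TSC regulators had medians of 0.76 (4 of 12 higher), 0.05 (3 of 13) and 0.38 (1 of 13), with none lower. All measured genes gave 6.56%, 7.59% and 5.51% higher. After thinning the medians of TSC regulators were 0.83 (3 of 10 higher), 0.22 (1 of 11) and 0.45 (0 of 11).

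Genes that remove hydrogen peroxide had medians closer to 0. Of these removal genes (catalase, glutathione peroxidases, peroxiredoxins, thioredoxins and superoxide dismutases), 1 of 22 was at least 2-fold higher and 2 lower in blastoid pTSCs with Duox2, 2 of 20 lower in pTSCs and 0 of 20 either way in TSCs, with medians of -0.27, -0.03 and -0.07. These counts are near the shares given above over all measured genes. Cells with Duox2 were deeper, at 9358 against 7551 UMIs in blastoid pTSCs, 7420 against 5385.5 in pTSCs and 16676 against 12445 in TSCs. With cells thinned to 2000 UMIs and split again, polar medians were 1.18, 0.33 and 0.66, mural medians -1.44, -0.44 and -0.65, and removal medians -0.12, -0.06 and -0.02.

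Split by Duoxa2 in place of Duox2, cells were compared in smaller numbers, 13 blastoid pTSCs, 87 pTSCs and 33 TSCs with the gene. Polar genes were at least 2-fold higher for 6 of 9 in blastoid pTSCs with Duoxa2 (median 1.23) and for 3 of 9 in TSCs (1 lower, median 0.57). In pTSCs none of 10 was higher and 1 was lower (median 0.17). FGF and ERK targets were higher for 4 of 7 in blastoid pTSCs (1 lower, median 1.50), 0 of 8 in pTSCs (median -0.06) and 3 of 8 in TSCs (1 lower, median 0.94). All measured genes gave 15.1%, 3.59% and 5.48% higher. Mural genes were lower for 8 of 11 (1 higher, median -1.35), 3 of 11 (median -0.56) and 3 of 11 (median -0.54), where all measured genes gave 9.29%, 6.30% and 7.72% lower. A gene with 0 UMIs in the cells with Duoxa2 was set to 3 UMIs, so a scarce gene could be counted as higher there. That weighs most on the 13 blastoid pTSCs, where it can raise the counts of higher genes, the medians and the 15.1%. Summed CPM, free of that setting, were 14588 with Duoxa2 and 6766 without for polar genes in blastoid pTSCs. They were 572 and 189 for FGF and ERK targets, and 4473 and 12545 for mural genes.

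**Figure D4:**
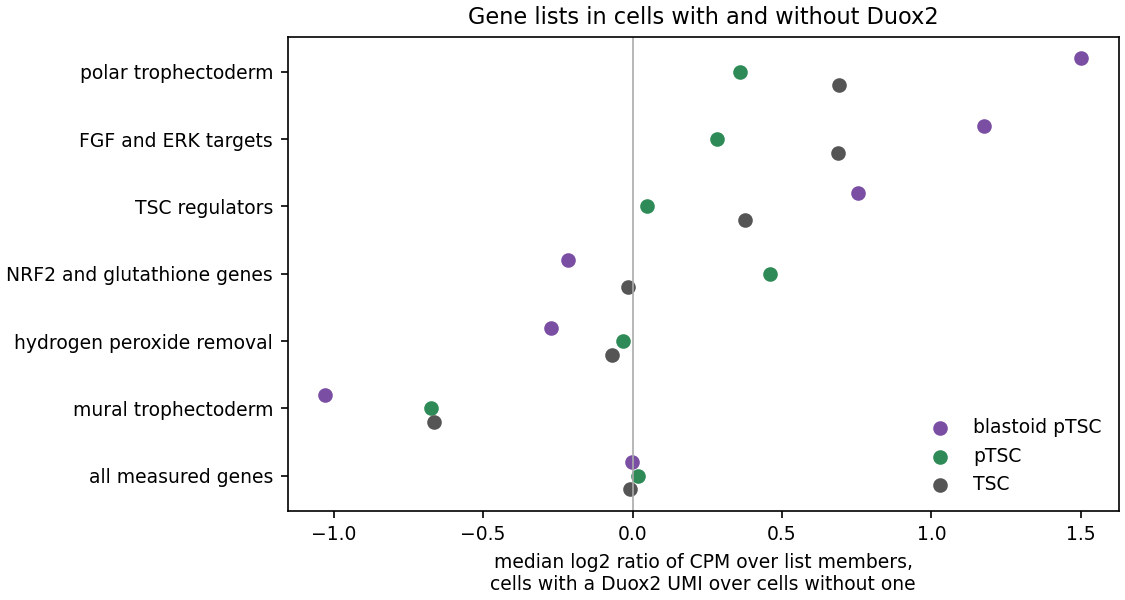
Median log2 ratio of CPM over the measured genes of each list, cells with a Duox2 UMI over cells without one, in blastoid pTSCs, pTSCs and TSCs. Polar trophectoderm medians lie at 0.36 to 1.50 and mural ones at -1.03 to -0.66, with all measured genes within 0.02 of 0.

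Across libraries, the other genes of peroxide and oxidase biology moved apart from each other. In differentiated TSCs against TSCs, 4 of 5 measured DUOX and NOX family genes were at least 2-fold lower and 1 was at least 2-fold higher. The lower ones included Cyba, the small membrane subunit of NOX enzymes, at 54.7 CPM in differentiated TSCs and 233 CPM in TSCs, and Nox1, at 1.84 and 11.9 CPM. Duox1 (4 UMIs against 27) and Duoxa1 (3 against 15) were also lower, but the ratio interval of Duoxa1, 0.0615 to 1.17, includes 1. Of 21 removal genes 6 were lower and 1 higher (median -0.41), against 35.5% of all genes past 2-fold either way. Of 11 NRF2 and glutathione genes, 6 were higher and 2 lower (median 1.05). The iodide transporter Slc5a5 was at 167 CPM in differentiated TSCs and 18.0 CPM in TSCs.

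Most trophectoderm lists were lower in that comparison, and mural genes were not. Over all 12158 genes measured, 18.0% were at least 2-fold lower and 17.5% at least 2-fold higher. Polar genes were at least 2-fold lower for 7 of 9 measured (median -2.28), with Nat8l at 34.1 CPM in differentiated TSCs and 788 CPM in TSCs, and Ddah1, which breaks down methylated arginine, at 42.7 and 454 CPM. TSC regulators were lower for 8 of 13 and higher for none (median -1.35), led by the transcription factors Elf5 at 0.615 and 37.9 CPM, Cdx2 at 2.46 and 49.9 CPM, and Tfap2c at 0.922 and 7.05 CPM. FGF and ERK targets were lower for 4 of 8 (median -0.96). Mural genes were higher for 4 of 11 and lower for 1 (median 0.37), with the galectin Lgals3 at 28.3 and 2.23 CPM, Krt8 at 2224 and 350 CPM, and the VEGF receptor Flt1 at 552 and 103 CPM. Differentiated trophoblast markers summed to 5463 CPM in differentiated TSCs (3 of 15 at 0) and 2100 CPM in TSCs (1 at 0). Their part in the levels of the pair was not tested.

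In pTSCs against TSCs, where both members were higher, FGF and ERK targets were at least 2-fold higher for 6 of 8 and lower for none (median 1.57), against 31.5% past 2-fold either way. Ccnd1, a G1 cyclin, was at 48.0 CPM in pTSCs and 9.84 CPM in TSCs, and the FGF antagonist Spry2 at 124 and 31.4 CPM. Polar genes were mixed, with 2 of 10 higher and 1 lower (median 0.30), the highest ratio being 12.2 for the surface protein gene Ly6a from 11 and 2 UMIs (interval 2.65 to 113), and the next 9.99 for the glutathione transferase Gsto1. Removal genes had 3 of 21 higher and 4 lower (median -0.26). Cyba was 8.75-fold lower in pTSCs (26.7 CPM against 233 CPM in TSCs), Nox1 2.23-fold lower, and the water and peroxide channels Aqp11 and Aqp3 10.6-fold and 4.28-fold lower. The extracellular superoxide dismutase Sod3 and the thyroid hormone deiodinase Dio3 had 0 UMIs in pTSCs against 36 and 32 in TSCs, at least 5.43-fold and 4.82-fold lower with the floor set at 3 UMIs in the library.

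In blastoid pTSCs against pTSCs, FGF and ERK targets went down with the pair, 6 of 8 being at least 2-fold lower and none higher (median -2.40), against 22.8% past 2-fold either way. Spry4 was at 13.0 CPM in blastoid pTSCs and 182 CPM in pTSCs, the ERK phosphatase Dusp6 at 29.8 and 321 CPM, and Fosl1, an AP-1 subunit, at 17.3 and 106 CPM. The immediate early gene Egr1 had 1 UMI against 26 (24.7-fold lower, interval 4.06 to 1013). Polar genes were lower for 4 of 10 and higher for none (median -0.91), and mural genes higher for 4 of 11 and lower for none (median 0.86), with the hypoxia-responsive Ndrg1 at 751 and 84.9 CPM. Removal genes had 3 of 22 higher and 2 lower (median 0.14), the higher ones including Gpx2 (11 UMIs against 1, ratio 11.6, interval 1.68 to 498) and Sod3 (33 against 0, at least 11.6-fold higher). The cystine transporter Slc7a11 was at 7.77 and 66.9 CPM. Cyba was 2.59-fold higher, Noxo1, an organizer of NOX1, had 13 UMIs against 2, and Aqp3 was at 23.7 and 4.51 CPM.

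Bulk libraries gave the opposite picture of the pair. Duox2 had 0 counts in all 3 CDX2-high and all 3 CDX2-low libraries, which over the pooled total allows up to 2.78 CPM, or 11.03 to 25.7 CPM in a single library. Duoxa2 had 22, 40 and 43 counts in CDX2-high libraries, against 3, 2 and 4 in CDX2-low libraries. That is 139.6, 155.5 and 158.1 CPM in CDX2-high and 25.7, 14.4 and 29.6 CPM in CDX2-low, so the groups did not overlap. Groups did not overlap for 22.7% of 3006 genes tested.

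The log2 fold change of Duoxa2, CDX2-high over CDX2-low, was 2.67 (SE 0.42), from means of 151 ± 10.01 CPM in CDX2-high and 23.2 ± 7.92 CPM in CDX2-low (SD, n = 3 each). No test is given for it, since this contrast helped to choose it. Across all genes, edgeR's quasi-likelihood test called 177 genes (5.89%), 93 higher (3.09%) and 84 lower (2.79%), at a Benjamini-Hochberg adjusted p under 0.05. Duoxa1 had no count in bulk and Duox1 a single one, in a CDX2-high library. In bulk samples, fewer cells of a type and less RNA per cell cannot be told apart.

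Some of the genes most alike to Duox2 or Duoxa2 across single cells could be read in bulk. Inpp1 rose in CDX2-high, at 234 ± 39.8 CPM against 30.9 ± 2.96 CPM in CDX2-low (log2 difference 2.90, SE 0.36, edgeR adjusted p = 9.28e-06). Nat8l rose as well, at 231 ± 40.9 CPM against 70.6 ± 32.9 CPM (1.69, SE 0.33, edgeR adjusted p = 0.00176). Cpne3 did not pass, at 186 ± 11.9 CPM in CDX2-high and 95.5 ± 34.8 CPM in CDX2-low (0.95, SE 0.31, edgeR adjusted p = 0.0659). Pbx3, Fgfr4 and Zic5 were too low to be tested.

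Few oxidase and peroxide genes could be tested in bulk. Of 14 DUOX and NOX family genes only Cyba and Rac1, a small GTPase, could be tested. Neither was called by edgeR or DESeq2, nor at an unadjusted p under 0.05, and Cyba was at 87.8 ± 16.2 CPM in CDX2-high and 119 ± 28.5 CPM in CDX2-low. The extracellular matrix peroxidase Pxdn was not called either. Of 15 removal genes tested, the peroxiredoxin Prdx6 rose (524 ± 43.3 CPM in CDX2-high, 296 ± 68.8 CPM in CDX2-low, log2 difference 0.80, SE 0.22, edgeR adjusted p = 0.0307). DESeq2 called none of the 15 (adjusted p = 0.0769 for Prdx6). Without replicate 37, 38, 39 or 40, edgeR called 0 genes of the oxidase and redox lists in place of 1. A call in 1 of 15 removal genes is near the 5.89% called over all genes. In the full set the list's median was -0.23 beside -0.01 over all tested genes. None of 3 NRF2 and glutathione genes was called by edgeR or DESeq2, with 1 at an unadjusted p under 0.05. No iodide or aquaporin gene reached the level for testing, and the 5 thyroid follicular markers had 0 counts in every bulk library.

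Calls in the FGF and trophectoderm lists are set here beside 3.09% higher and 2.79% lower over all genes tested by edgeR. FGF and ERK targets rose for 4 of 6 tested and fell for none (median 1.57): Ccnd1, Dusp6, Etv4 and Myc. DESeq2 called 2 of them, and its adjusted p was 0.192 for Etv4 and 0.193 for Myc. Mural genes fell for 5 of 8 (median -1.005), among them Krt8, at 212 ± 30.3 CPM in CDX2-high and 758 ± 101 CPM in CDX2-low (log2 difference -1.83, SE 0.22, edgeR adjusted p = 7.05e-06). DESeq2 called 4 of the 5, with an adjusted p of 0.0598 for Krt19. Polar genes rose for 3 of 9 (Nat8l, Ly6a and Ddah1), while Cited1, a transcriptional coactivator, fell (median 0.64). The call of Ddah1 was lost with DESeq2 (adjusted p = 0.0611). TSC regulators had 1 rise, the factor Klf5, and 1 fall, the inhibitor of differentiation Id2, among 11 (median 0.49). Markers of differentiated trophoblast summed to 362 to 443 CPM in CDX2-high and 969 to 1141 CPM in CDX2-low. Dlx3, Gcm1, Tpbpa, Prl3d1 and Prl2c2, 5 of its 15 genes, were at 0 in all 6. The part of these cells in the Duoxa2 difference was not tested.

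Bulk and single-cell tables thus differed in how much of each member they held. Pooled bulk Duoxa2 stood at 106 CPM, against 8.91 CPM in single TSCs, whereas Duox2 was at a limit of 2.78 CPM in bulk against 132 CPM in single TSCs. Among 1745 genes in both tables at or above the Duox2 level of the TSC library, 10 (0.573%) had no count in bulk, Duox2 among them. The tables were made separately and from different lines, and the cause was not tested.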

How the data were processed

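CEL-Seq2 libraries of mouse TSC lines were used, 4 of single cells and 6 of sorted bulk cells. The submitters' processing notes list STAR 2.5.3a, with no role. Genome build, annotation, counting program and strand setting: not given in the sources used here. The bulk table, as deposited, holds raw counts per gene. The single-cell tables, as deposited by the authors, hold whole-number UMI counts per gene and well, treated as estimated counts because a correction for label collisions is not stated; no rounding was needed. No column of per-sample values was left unmapped.

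The test across bulk genes was edgeR 4.0.16 under R 4.3.3 (filterByExpr, TMM, glmQLFit, glmQLFTest, Benjamini-Hochberg over 3006 genes), with DESeq2 1.42.0 as an alternative; each SE was taken as the log2 difference over the square root of F. Counts of single cells were summed over the wells that held 2000 or more UMIs (mitochondrial genes left out) and divided by that total, with exact Poisson, conditional binomial and Clopper-Pearson intervals at 95% for counting error alone. The limit for a count of 0 was 3 counts. Doublets were not called on these sorted plates; an alternative dropped the deepest 5% of wells. Clusters came from scanpy 1.11.5 per library without the pair (counts scaled to 10000, log1p, 2000 variable genes, 30 components, 15 neighbours, Leiden resolution 0.5), named where 3 of the 10 leading genes were markers of 1 cell type. Scripts were tested on simulated data. Software was Python 3.11.15 with scipy 1.17.1, pandas 2.3.3, numpy 2.4.6 and matplotlib 3.10.9.

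The members and the gene lists were chosen with earlier results of these data known. Named genes were the pair, the 5 genes most alike across cells to each, and up to 5 list genes each way per comparison, with Duox1, Duoxa1, the Nox genes, Cyba and Cdx2; others named serve as examples chosen after their values were seen. Nox3, Nox4 and Cybb had too few UMIs for a ratio in the single-cell comparisons. A gene that this rule names is not reported here.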

Additional observations from a re-analysis of the deposited data

Results flagged for a closer look

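Wells under 2000 UMIs entered no comparison, yet they held Duox2 above the limit that a count of 0 allows. There were 14 Duox2 UMIs in 127 such wells of blastoid pTSCs (356 CPM of their summed counts), 34 in 85 wells of pTSCs (543 CPM) and 5 in 66 wells of TSCs (128 CPM). Kept cells of these libraries stood at 246, 522 and 132 CPM. The 66 dropped wells of differentiated TSCs held none. These plates have no control samples for this measure.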

How the results depend on the processing

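No recomputed result reversed: 100 alternative values stayed within the limits used and 29 moved past them. DESeq2 called 42 genes higher and 46 lower in CDX2-high, and 0 DUOX and redox genes in place of 1. Thinning bulk libraries to the smallest total gave 56, 48 and 0. Without a filter on low counts 2 such genes were called. Leaving out each bulk replicate gave 50 to 98 genes higher, 31 to 91 lower and 0 to 1 DUOX and redox genes. Each CDX2-high library mattered, with 54 higher and 41 lower without replicate 37, 60 and 42 without replicate 38, and 50 and 31 without replicate 39. Duoxa2's log2 fold change stayed at 2.42 to 2.98 under every bulk alternative. Duox2's bulk fold change had no value under any, since both groups were at 0.

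In single cells, leaving out the 3 richest wells gave ratios of 0.00799 (Duox2) and 0.0417 (Duoxa2) for differentiated TSCs over TSCs, and 0.406 (Duox2) for blastoid pTSCs over pTSCs. Weighting cells equally gave 0.407 for that last ratio and thinning 0.422. Thinning, which was added after seeing the data for shares, gave differences in the share of cells of -19.8 (Duox2) and -1.89 (Duoxa2) percentage points for differentiated TSCs minus TSCs, 31.4 and 9.48 for pTSCs minus TSCs, and -10.2 (Duoxa2) for blastoid pTSCs minus pTSCs. It put the Duoxa2 ratio of differentiated TSCs over TSCs at 0, and co-detection in pTSCs at 1.59 times the product of shares. For differentiated TSCs it left no cell with Duoxa2, so co-detection could not be computed. The cause was not tested, other than that fewer counts remain after thinning.

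No paired analysis was possible because the bulk groups share no replicate number and each single-cell group has 1 library. Depth limits Duoxa2 in blastoid pTSCs (18 UMIs) and both genes in differentiated TSCs (9 and 5 UMIs).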
